A study of Mus musculus with 8 samples.

Results

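The genes of the constitutive proteasome were examined in peripheral blood mononuclear cells of mice. They were taken as the protein-coding genes whose names begin with Psm, one of the letters a to g and a digit, without the interferon-inducible subunits Psmb8, Psmb9 and Psmb10 and without Psme1 and Psme2. The rule found 46 of the 56748 genes in the count table. Of these, 16 encode the core particle and 17 the regulatory particle. The other 13 encode alternative caps, an inhibitor, assembly chaperones, a copy of Psme2, and Psmc3ip and Psme3ip1, which share the name stem but encode proteins that bind a subunit. A filter on low counts was passed by 44 genes. The testis core gene Psma8 (0 to 5 counts per library) and the thymus core gene Psmb11 (0 to 2 counts) did not pass it.

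Male wild-type C57BL/6J mice, 8 weeks of age, were gavaged daily for 1 month. The saline group (5 libraries) received saline and the fucoidan group (3 libraries) received fucoidan from Undaria pinnatifida, a sulphated polysaccharide of brown seaweed, at 200 mg per kg. Blood was taken by cardiac puncture, mononuclear cells were separated on a density gradient, and poly(A) RNA was sequenced. Each library is titled as a biological replicate, without the number of mice behind it, so p-values measure the spread between these libraries. The treatment text of the fucoidan libraries names saline whereas their titles and characteristics name fucoidan, which were followed. Total counts were 13061703 to 16334932 per library. Haemoglobin transcripts took 3.51 to 8.48% of counts in the saline libraries and 13.55 to 24.1% in the fucoidan libraries. Markers of B cells (summed level 4317 to 5614 CPM in the saline libraries), T cells (1121 to 1331 CPM) and classical monocytes (3852 to 7187 CPM) were present as in mononuclear cells, beside those of erythroid cells and platelets, where CPM is the count scaled to a common library size with TMM factors. These markers moved with the groups: 17 of 18 tested erythroid and 14 of 14 platelet markers were called higher, as were 9 of 10 natural killer, 5 of 9 nonclassical monocyte and 3 of 13 T cell markers. Called lower were 9 of 10 B cell, 2 of 10 classical monocyte and 1 of 9 nonclassical monocyte markers, and 0 of 10 tested neutrophil markers were called in either direction. In such a mixture, fewer cells of a type and less RNA per cell cannot be told apart.

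The proteasome is the protease that degrades proteins tagged with ubiquitin. Its barrel-shaped core is built of rings of alpha and beta subunits, and 3 of the beta subunits cut the substrate. The regulatory particle that caps the core has a base of ATPases, which unfold the substrate, and a lid that removes the ubiquitin. Other caps can take its place, and in lymphocytes and cells exposed to interferon the catalytic subunits are exchanged for inducible ones. Cells that mature into red cells lose their organelles and many proteins, and the ubiquitin system is active in them.

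No core gene and 1 of 17 regulatory genes passed the test between the groups, and 3 genes in all rose with fucoidan. They were Psme3, which encodes the subunit of a nuclear cap that does not need ubiquitin, Psmf1, an inhibitor and regulator of the core, and Psmd4, the ubiquitin receptor of the regulatory particle. Their fold changes were 3.60, 1.93 and 1.52. Of the 44 genes tested, these 3 were called higher (6.82%) at an adjusted p under 0.05 by edgeR's quasi-likelihood test, against 9.11% of all 14723 tested genes. None was called lower, against 4.65% of all tested genes. At an unadjusted p under 0.05, 5 members were higher and 0 lower, against 14.7% and 13.3% of all tested genes. That unadjusted threshold placed 2 core genes lower under each of 3 alternatives (upper-quartile factors, the replicate number as a block, and fucoidan replicate 1 left out). It placed 1 core gene lower with a filter of at least 10 counts in every library, and 1 lower without saline replicate 2. Without saline replicate 1 it placed 1 core gene higher and 0 lower. DESeq2 and limma-voom also called 3 members higher and 0 lower.

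**Figure D1:**
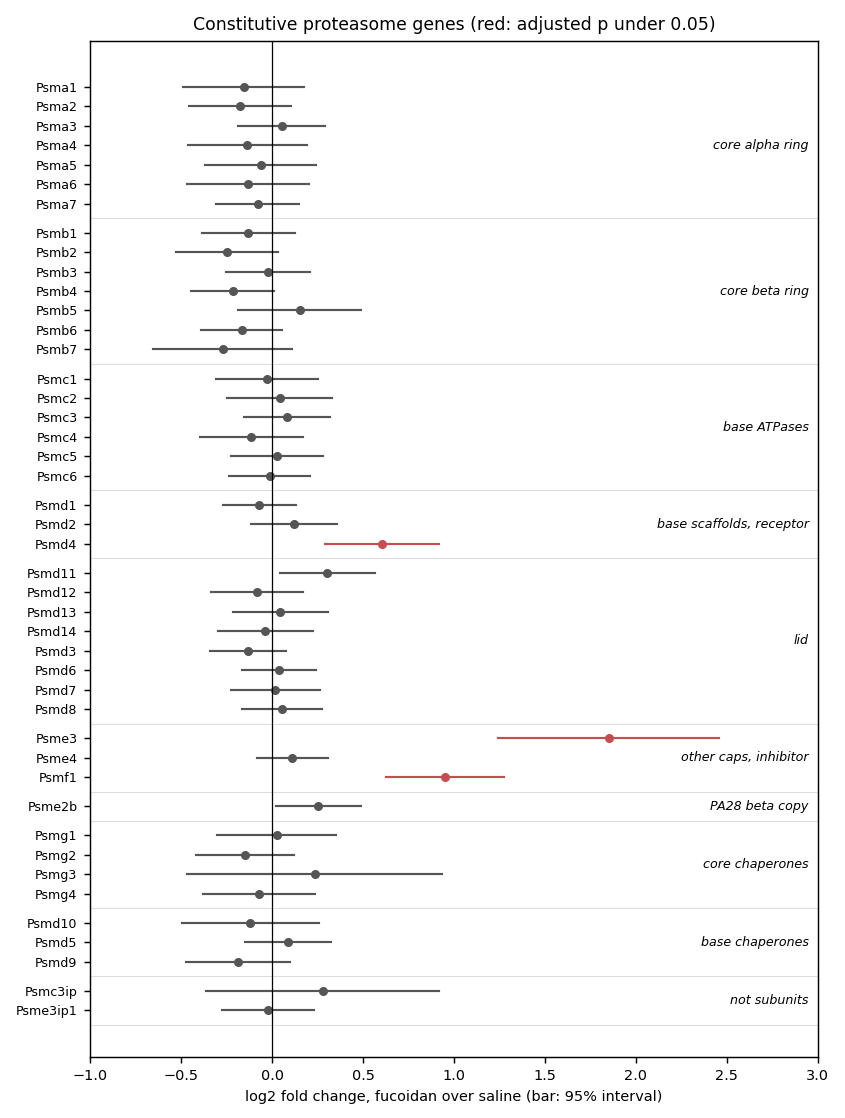
Log2 fold change of each of the 44 tested genes, fucoidan over saline, grouped by role. Points are edgeR estimates, bars are 95% intervals, and red marks an adjusted p under 0.05. Psme3, Psmf1 and Psmd4 stand to the right of 0, and the other estimates lie between -0.27 and 0.30.

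The core particle showed no call. Of its 14 tested genes 0 were called in either direction by edgeR, DESeq2 or limma-voom. In edgeR 9.11% of all tested genes were called higher and 4.65% lower. At an unadjusted p under 0.05 edgeR placed 0 of the 14 in either direction, against 14.7% higher and 13.3% lower of all tested genes. The median log2 fold change was -0.13, against -0.04 for all tested genes, with 12 estimates below and 2 above 0. Without saline replicate 1 the core median was -0.04, against -0.03 for all genes tested then, with 10 estimates below and 4 above 0. The 95% intervals of the 14 folds all lay between 0.635 and 1.40.

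In the alpha ring, which gates entry to the core, the 7 tested genes had folds of 0.885 to 1.04. Psma2 had the smallest p: its saline libraries stood at 87.7, 60.9, 65.1, 66.2 and 63.9 CPM and its fucoidan libraries at 64.6, 60.6 and 57.2 CPM. The groups overlapped, and saline replicate 1 was high. The log2 fold change of Psma2 was -0.18 (SE 0.127, adjusted p = 0.402), that of Psma1 -0.16 (adjusted p = 0.549) and that of Psma5, which had the largest p, -0.06 (adjusted p = 0.826).

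In the beta ring the catalytic genes Psmb6, Psmb7 and Psmb5, which encode the caspase-like, trypsin-like and chymotrypsin-like subunits, gave no call. Psmb5 was at 47.2, 29.0, 36.6, 32.1 and 32.2 CPM after saline and 38.8, 36.0 and 43.4 CPM after fucoidan, a log2 fold change of 0.15 (95% interval -0.18 to 0.49, adjusted p = 0.571). Psmb6 was at 54.8, 46.2, 45.6, 50.0 and 44.1 CPM after saline and 45.0, 40.7 and 43.0 CPM after fucoidan, a log2 fold change of -0.17 (-0.39 to 0.06, adjusted p = 0.318). Psmb7 was at 39.7, 23.9, 30.4, 28.6 and 24.4 CPM after saline and 28.3, 21.3 and 23.3 CPM after fucoidan, a log2 fold change of -0.27 (-0.65 to 0.11, adjusted p = 0.345), with Nek6 overlapping it on the other strand at 20.9% of its count. In each of the 3 genes the groups overlapped and saline replicate 1 was the highest library.

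Psmb4, a structural subunit of the same ring, was the 1 core gene whose groups did not overlap. It stood at 107.2, 88.1, 90.0, 94.2 and 89.3 CPM after saline and 87.8, 73.1 and 81.3 CPM after fucoidan. Its log2 fold change of -0.22 (SE 0.104) did not pass the test (adjusted p = 0.202), and 11.0% of all tested genes had every fucoidan library below every saline library. Psmb2 had a log2 fold change of -0.25 (adjusted p = 0.239) and Psmb3 of -0.02 (adjusted p = 0.918).

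The saline libraries varied together in the core genes. All 14 were highest among the saline libraries in replicate 1, and the coefficient of variation over the 5 libraries was 8.41 to 21.7% with a median of 13.8%. The same library was the highest in the summed markers of classical monocytes, at 7187 CPM against 3852 to 4445 in the other saline libraries. It was also the highest in those of neutrophils (1522 against 656 to 1016 CPM). The same held for natural killer cells (580 against 416 to 516 CPM) and T cells (1331 against 1121 to 1313 CPM). In B cell, nonclassical monocyte, erythroid and platelet markers another saline library was the highest. The part of these cells in the core genes was not tested. In the regulatory particle 14 of 17 genes were likewise highest in saline replicate 1. The 3 others were Psmd4 and Psmc5, highest in saline replicate 3, and Psmd11, highest in saline replicate 5.

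In the regulatory particle 1 of 17 genes was called higher and 0 lower, against 9.11% and 4.65% of all tested genes. The median log2 fold change was 0.03, against -0.04 for all tested genes, with 10 estimates above and 7 below 0. DESeq2 and limma-voom each called 1 higher and 0 lower. At an unadjusted p under 0.05 in edgeR, 2 were higher (Psmd4 and Psmd11) and 0 lower, against 14.7% and 13.3% of all tested genes.

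The called gene was Psmd4 (ENSMUSG00000005625, GRCm39 chromosome 3, 94940005 to 94949925), whose product binds ubiquitin chains and passes the substrate on. It was at 111 CPM in saline replicate 1, 94.5 in replicate 2, 126 in replicate 3, 100.8 in replicate 4 and 98.0 in replicate 5. The fucoidan libraries stood at 140.6, 142 and 202 CPM, all above the saline libraries, and replicate 3 was the highest. The saline mean was 106 ± 12.9 CPM (SD, n = 5) against 161 ± 34.9 CPM (SD, n = 3) with fucoidan, a log2 fold change of 0.60 (SE 0.142, adjusted p = 0.0173). Without fucoidan replicate 3 it was 0.42 and no longer passed (adjusted p = 0.0805).

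The scaffolds beside it in the base did not pass: Psmd2, the large subunit that docks ubiquitin-like domains, had a log2 fold change of 0.12 (adjusted p = 0.505) and Psmd1 of -0.07 (adjusted p = 0.674). The 6 ATPase genes, whose products form the unfolding ring, had log2 fold changes of -0.11 to 0.08, and their 95% intervals covered folds of 0.759 to 1.26. Psmc4 had the smallest p of them (log2 -0.11, adjusted p = 0.623), followed by Psmc3 (0.08, adjusted p = 0.680), which Slc39a13 overlaps on the other strand at 19.2% of its count, and Psmc6 the largest (-0.01, adjusted p = 0.952).

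Among the 8 lid genes Psmd11, a scaffold subunit that takes part in assembly, had the largest estimate. Its saline libraries were at 60.5, 45.3, 61.4, 53.1 and 61.9 CPM and its fucoidan libraries at 71.1, 64.4 and 73.4 CPM. The groups did not overlap, as in 11.6% of all tested genes with fucoidan above saline, but the log2 fold change of 0.30 (SE 0.118) did not pass the test (adjusted p = 0.117). The lid subunit Psmd3 had a log2 fold change of -0.13 (adjusted p = 0.402) and Psmd7 of 0.02 (adjusted p = 0.940). The 8 estimates spanned -0.13 to 0.30.

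Core and regulatory genes were then compared. The median log2 fold change of the core genes was 0.16 below that of the regulatory genes (a difference of -0.16), and it was negative under all 16 alternatives, at -0.19 to -0.10. The value of -0.10 was obtained without saline replicate 1, the library in which most subunits were highest. The sign of the regulatory median itself was not stable: it was -0.02 with upper-quartile factors, -0.02 without saline replicate 2 and -0.04 without fucoidan replicate 1. A separate measure, the ratio of core to regulatory sums within a library, does not depend on scaling. Unlike the median it gives more weight to abundant genes. Summed per kilobase of gene length, core transcripts were 1.16, 1.04, 1.04, 1.06 and 0.995 times the regulatory transcripts in the saline libraries. The ratios were 0.959, 0.939 and 0.875 in the fucoidan libraries, so that the groups did not overlap, and the lowest was that of the library with the most haemoglobin, whose part was not tested. With Psmd4 left out the ratios were 1.104 to 1.28 after saline and 1.07 to 1.099 after fucoidan, just apart. No test was made of these sums, since the genes share libraries.

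Per length the subunits stood within 1 order of magnitude of each other. Core genes ranged from 8.59 CPM per kb for Psmb7 to 53.5 CPM per kb for Psma6 in the saline mean, with a median of 25.0, and regulatory genes from 6.04 for Psmd1 to 37.8 for Psmd4, with a median of 19.1. The sources used here do not say how the gene lengths of the table (899 to 7265 bases for these 31 genes) were defined, and long alternative exons would lower such a value. The summed level of the core genes was 381 ± 53.7 CPM per kb (SD, n = 5) in the saline libraries, against 354 ± 22.8 (SD, n = 3) with fucoidan. That of the regulatory genes was 359 ± 32.6 (SD, n = 5), against 383 ± 25.4 (SD, n = 3), and both sums overlapped between the groups.

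Among the alternative caps and the inhibitor, Psme3 and Psmf1 were called higher and Psme4 was not. Psme3 (ENSMUSG00000078652, GRCm39 chromosome 11, 101207039 to 101214363) was at 218, 194, 329, 219.5 and 179.6 CPM in the saline libraries and at 523, 639.6 and 1304 CPM in the fucoidan libraries. All fucoidan libraries were above all saline libraries, fucoidan replicate 3 was the highest in its group and saline replicate 3 in the other. The saline mean was 228 ± 59.1 CPM (SD, n = 5) against 822 ± 421 CPM (SD, n = 3) with fucoidan, a log2 fold change of 1.85 (SE 0.276, adjusted p = 0.00396), which is 3.60-fold with a 95% interval of 2.37 to 5.49. Without fucoidan replicate 3 the log2 fold change was 1.36 (adjusted p = 0.0133).

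Psme3 was the most abundant member per length even after saline, at 77.3 CPM per kb. It stood at 2.46 to 4.404 times the median core gene in the saline libraries and at 7.28, 10.04 and 20.05 times in the fucoidan libraries. Of all counts that fell on the 46 genes it took 7.72 to 12.8% after saline and 18.2, 22.9 and 35.7% after fucoidan. Relative to Psme1, the cytoplasmic counterpart that interferon induces, Psme3 was at 0.870 to 1.65 per length after saline and at 2.36 to 6.26 after fucoidan.

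Psmf1 (ENSMUSG00000032869, chromosome 2, 151557732 to 151586106) was at 40.6, 35.4, 49.1, 41.7 and 36.2 CPM after saline and at 66.6, 70.1 and 99.1 CPM after fucoidan. The groups did not overlap, and replicate 3 was again the highest library in each. The log2 fold change was 0.95 (SE 0.148, adjusted p = 0.00396), a 1.93-fold rise with a 95% interval of 1.54 to 2.42. Without fucoidan replicate 3 it was 0.76 (adjusted p = 0.0141). The count table lists no other gene overlapping Psme3, Psmf1 or Psmd4.

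Psme4, which encodes the large single-chain cap linked to DNA repair and histone turnover, did not pass. It was at 73.9, 72.6, 69.8, 80.1 and 77.2 CPM after saline and 76.1, 80.2 and 85.9 CPM after fucoidan, a log2 fold change of 0.11 (95% interval -0.09 to 0.31, adjusted p = 0.459). Psme2b, a copy of Psme2 that the rule keeps, had a log2 fold change of 0.25 (SE 0.106, adjusted p = 0.144). Its count is uncertain, since reads may be split with Psme2 and the table places another gene, Gm12185, over its whole 837 bases and part of 9930111J21Rik1 over 41 of them.

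**Figure D2:**
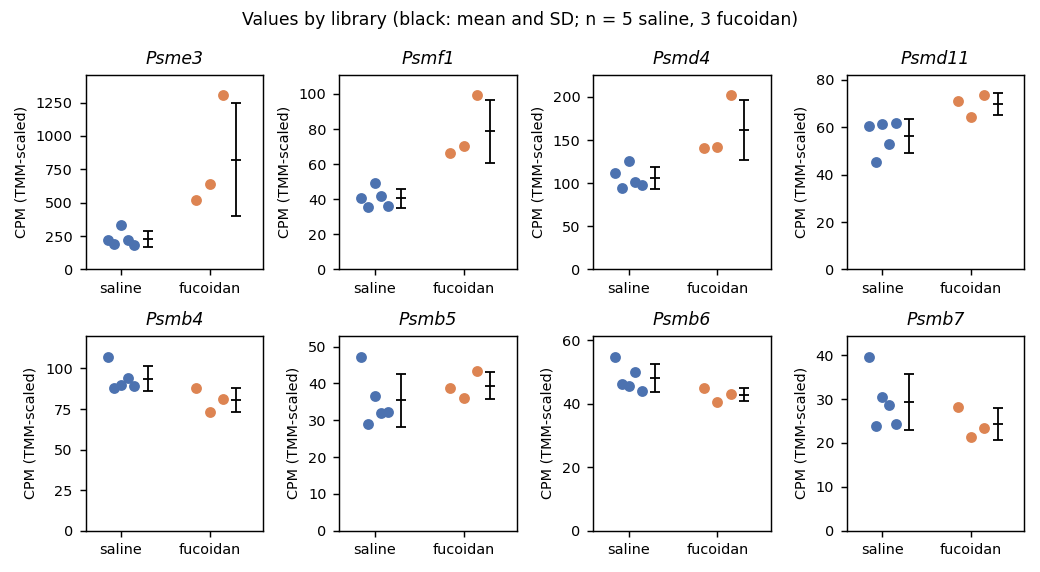
TMM-scaled CPM by library for 8 genes, with saline in blue (n = 5) and fucoidan in orange (n = 3). Black marks give the mean and SD. Psme3, Psmf1, Psmd4 and Psmd11 do not overlap between the groups, Psmb4 is lower in every fucoidan library, and Psmb5, Psmb6 and Psmb7 overlap.

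In each group the 3 called genes were highest in the library with the most haemoglobin. The saline library with the most, replicate 3 at 8.48% of counts, was the highest of the saline libraries in Psme3, Psmf1 and Psmd4. The fucoidan library with the most, replicate 3 at 24.1%, was the highest of all. Fucoidan replicate 1, at 14.18% haemoglobin, was below replicate 2, at 13.55%, in all 3 genes, though narrowly in Psmd4 (140.6 against 142 CPM). The 19 erythroid markers in the table summed to 33221 to 91787 CPM after saline and 161520 to 385250 CPM after fucoidan, and the 15 platelet markers to 2927 to 6215 and 8781 to 18887 CPM, with no marker at 0 in every library. Their part in the differences of Psme3, Psmf1 and Psmd4 was not tested. The haemoglobin shares of the groups did not overlap, so the treatment and this share cannot be told apart. The summed core and regulatory genes stood at 0.873 to 1.24 times their saline means over the 8 libraries.

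**Figure D3:**
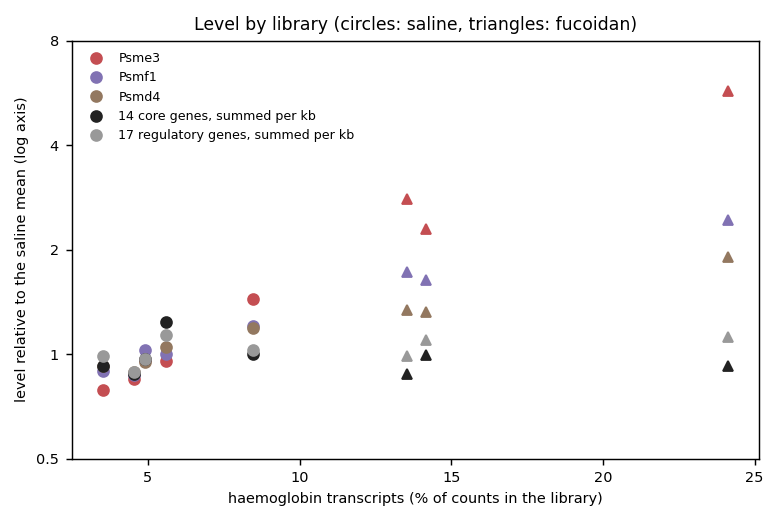
Level of Psme3, Psmf1, Psmd4 and of the summed core and regulatory genes in each library, relative to the saline mean, on a log axis, against the share of counts on haemoglobin genes. Circles are saline and triangles fucoidan libraries. Psme3 is highest in the library with 24.1% haemoglobin, while the core and regulatory sums lie between 0.873 and 1.24 in all 8 libraries.

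The sequences before the start sites of the 3 genes that rose are given here, with those of the catalytic core genes Psmb5 and Psmb6, which were not called, to show matches to another motif. They are the 250 bases before the RefSeq start, build GRCm38.p6, written 5′ to 3′ on the gene's strand. Psme3 is at chr11:101315963-101316212, plus strand, Psmf1 at chr2:151741311-151741560, minus strand, Psmd4 at chr3:95042615-95042864, minus strand, Psmb5 at chr14:54617996-54618245, minus strand and Psmb6 at chr11:70525107-70525356, plus strand. Capitals mark matches, on either strand, to the motifs TGACNNNGC, the core of the antioxidant response element that NFE2L1 and NFE2L2 bind, CCAAT, the box of NF-Y, AGATAA, a site of zinc-finger factors such as GATA1, and CACACCC, a box of the Krüppel-like factors.
Psme3: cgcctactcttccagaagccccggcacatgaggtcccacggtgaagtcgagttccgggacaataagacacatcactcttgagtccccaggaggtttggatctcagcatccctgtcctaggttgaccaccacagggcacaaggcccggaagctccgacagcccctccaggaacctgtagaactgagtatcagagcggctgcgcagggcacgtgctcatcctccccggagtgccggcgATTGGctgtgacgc
Psmf1: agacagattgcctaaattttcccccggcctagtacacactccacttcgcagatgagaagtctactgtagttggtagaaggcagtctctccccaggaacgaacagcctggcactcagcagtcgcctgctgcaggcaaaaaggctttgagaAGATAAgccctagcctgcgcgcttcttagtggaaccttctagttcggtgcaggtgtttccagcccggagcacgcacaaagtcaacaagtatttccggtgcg
Psmd4: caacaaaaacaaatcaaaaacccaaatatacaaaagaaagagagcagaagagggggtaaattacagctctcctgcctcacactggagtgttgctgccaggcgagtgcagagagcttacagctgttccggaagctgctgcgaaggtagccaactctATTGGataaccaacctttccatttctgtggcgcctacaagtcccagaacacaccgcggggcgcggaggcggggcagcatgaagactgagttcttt
Psmb5: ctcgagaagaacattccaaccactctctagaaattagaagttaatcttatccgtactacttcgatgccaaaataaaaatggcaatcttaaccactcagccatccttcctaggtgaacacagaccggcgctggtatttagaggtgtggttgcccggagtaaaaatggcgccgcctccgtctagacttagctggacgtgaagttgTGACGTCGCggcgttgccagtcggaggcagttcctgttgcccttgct
Psmb6: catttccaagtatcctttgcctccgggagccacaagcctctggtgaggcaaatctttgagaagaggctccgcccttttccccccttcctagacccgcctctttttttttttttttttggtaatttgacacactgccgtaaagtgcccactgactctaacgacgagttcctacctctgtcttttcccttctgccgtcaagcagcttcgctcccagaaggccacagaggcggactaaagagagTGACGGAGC
Psme3 holds a CCAAT match 14 to 10 bases before its start and Psmd4 one 95 to 91 bases before, both as the reverse complement, and Psmf1 holds AGATAA 101 to 96 bases before. TGACNNNGC matched in Psmb5 (47 to 39 bases before) and in Psmb6 (9 to 1 bases before). Such windows were matched for 38 of the 46 genes (41 windows). TGACNNNGC was in 5 of the 41 (12.2%) against 10.2% of all 32851 windows, CCAAT in 15 (36.6% against 33.8%), AGATAA in 2 (4.88% against 9.99%) and CACACCC in 2 (4.88% against 6.93%). By particle, CCAAT was in 7 of 13 core, 4 of 15 regulatory and 4 of 13 other windows, and TGACNNNGC in 2, 2 and 1 of them. Psmb5 and Psmb6 are the 2 core windows with TGACNNNGC, and neither holds the CCAAT match that 7 other core windows share with Psme3 and Psmd4. A match in letters does not show that a factor binds there.

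None of the 7 assembly chaperones was called. Of the core chaperones, which guide the alpha ring, Psmg1, Psmg2, Psmg3 and Psmg4 had log2 fold changes of 0.03, -0.15, 0.23 and -0.07 (adjusted p = 0.477 to 0.933). Psmg3 was low, at 2.14 to 5.54 CPM after saline, and its 95% interval of -0.47 to 0.94 leaves a wide range of folds. Of the base chaperones Psmd5, Psmd9 and Psmd10 (gankyrin) had log2 fold changes of 0.09, -0.19 and -0.12 (adjusted p = 0.381 to 0.703). At an unadjusted p under 0.05 edgeR placed 0 of the 7 in either direction, and DESeq2 and limma-voom called 0. Per length the chaperones stood at 1.09 to 17.8 CPM per kb after saline.

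The name matches that are not subunits did not pass either. Psmc3ip, a cofactor of meiotic recombination, was at 1.18 to 1.81 CPM after saline and 1.37 to 2.08 CPM after fucoidan (log2 0.28, adjusted p = 0.585), and Psme3ip1, which binds Psme3, had a log2 fold change of -0.02 (adjusted p = 0.926). Psme3ip1 shares 61 bases with Rspry1 and Psmc3ip shares 385 bases with the far more abundant Mlx on the other strand, and whether reads were counted by strand is not known here.

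Other genes of the pathway were read from 6 lists, 38 genes beside the members. Of these 2 were called higher (5.26%, against 9.11% of all tested genes) and 0 lower (against 4.65%) by edgeR. At an unadjusted p under 0.05, 3 were higher and 1 lower, against 14.7% and 13.3% of all tested genes. DESeq2 called 3 higher and 1 lower, and limma-voom 2 higher and 0 lower.

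Ubb, a gene of several joined ubiquitin units, was at 1109, 1184, 1856, 1382 and 1207 CPM after saline and at 2889.9, 2817 and 5459 CPM after fucoidan. The groups did not overlap, and the log2 fold change was 1.47 (SE 0.235, adjusted p = 0.00396). Rps27a, which encodes ubiquitin fused to a ribosomal protein, had a log2 fold change of -0.78 that did not pass (adjusted p = 0.0728). With the replicate number as a block Rps27a was called lower, at -1.0025 (adjusted p = 0.017).

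Of the 10 shuttle and segregase genes, which carry tagged proteins to the proteasome or pull them from complexes, 0 were called in either direction by edgeR, with 1 higher at an unadjusted p under 0.05. That gene was the shuttle Ubqln1, with a log2 fold change of 0.53 (95% interval 0.17 to 0.88, adjusted p = 0.0545). DESeq2 called Ubqln1 higher (adjusted p = 0.0189) and limma-voom did not (adjusted p = 0.0769).

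Foxo4, a forkhead factor with a known link to proteasome gene control, was at 56.7, 60.7, 83.0, 69.1 and 62.0 CPM after saline and 102, 109 and 205 CPM after fucoidan (log2 1.06, SE 0.212, adjusted p = 0.00801). Without fucoidan replicate 3 the log2 fold change of Foxo4 was 0.68 (adjusted p = 0.0225). The other 11 genes of transcriptional control were not called: Nfe2l1, the factor that raises subunit genes when the proteasome is blocked, had a log2 fold change of 0.02 (95% interval -0.19 to 0.23, adjusted p = 0.925) and Nfe2l2 of 0.22 (adjusted p = 0.317). Ubb and Foxo4 were, like Psme3, highest in replicate 3 of each group, the libraries with the most haemoglobin, whose part was not tested.

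Of the 8 ubiquitin enzymes and cofactors bound to the proteasome 0 were called and 0 had an unadjusted p under 0.05. The smallest p was that of Zfand2a, an arsenite-inducible cofactor, whose log2 fold change was 0.35 (adjusted p = 0.310). Sem1 and Pomp, a lid subunit and a core assembly factor outside the rule, had log2 fold changes of 0.20 (adjusted p = 0.352) and 0.14 (adjusted p = 0.469).

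**Figure D4:**
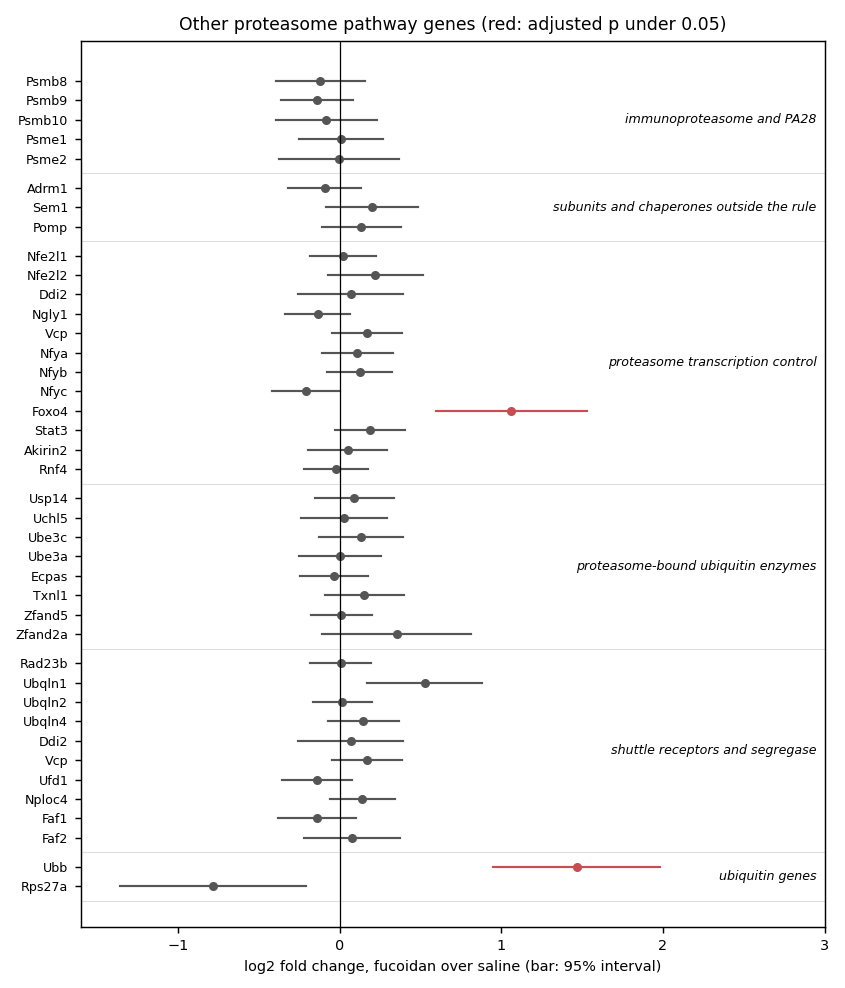
Log2 fold change, fucoidan over saline, of the other proteasome pathway genes by list, with 95% intervals. Ddi2 and Vcp are in 2 lists and drawn in both. Red marks an adjusted p under 0.05: Foxo4 and Ubb stand to the right of 0.

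The inducible subunits gave no call: Psmb8, Psmb9 and Psmb10 had log2 fold changes of -0.12, -0.14 and -0.08 and Psme1 and Psme2 of 0.01 and 0.00 (adjusted p = 0.412 to 0.989). Per length, Psmb8 was at 1.07 to 1.31 times its constitutive counterpart Psmb5 after saline and 0.924 to 1.07 times after fucoidan. Psmb9 was at 0.811 to 0.967 and 0.834 to 0.963 times Psmb6, and Psmb10 at 5.69 to 7.41 and 6.505 to 7.91 times Psmb7. The first of these ratios was lower in every fucoidan library (1.070 at most) than in every saline library (1.072 at least), by a narrow margin, and the others overlapped. These ratios were not tested, and they rest on the table's gene lengths, whose definition is not known here. Psmb8 was listed with 3381 bases against 899 for Psmb5, and Psmb9 with 3660 against 1872 for Psmb6. Psmb10 was listed with 1705 bases against 3421 for Psmb7. Without division by length the saline means of the same pairs were 157 against 35.4 CPM, 83.1 against 48.1 CPM and 92.8 against 29.4 CPM.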

How the data were processed

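The authors deposited raw gene counts (whole numbers, no normalization) for 56748 genes with names, biotypes, lengths and GRCm39 coordinates. Per the submitters' processing notes, cutadapt 4.0, Trimmomatic 0.39 and HISAT2 2.2.1 were used with GRCm39 (mm39). The sources used here do not give the counting program, the annotation release or whether strand was used.

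Genes were filtered with filterByExpr, scaled with TMM and tested across all genes with edgeR 4.0.16 (R 4.3.3), quasi-likelihood in robust mode, with group as the only term and Benjamini-Hochberg adjustment over 14723 genes. The SE is the absolute log2 fold change over the square root of F, and 95% intervals use the test's degrees of freedom. CPM per kb is scaled CPM per 1000 bases of the table's gene length. DESeq2 1.42.0, limma 3.58.1, other scalings and filters and leaving out each library were alternatives. The fit was also run on simulated counts, drawn for each gene independently, and the outcome is not reported here. The labels give 1 batch date. They do not say that replicate numbers pair mice. With group means removed, saline and fucoidan libraries of the same number correlated at 0.177, 0.233 and 0.144. Those of different numbers correlated at -0.261 to 0.144. A block fit was run as an alternative. Correlations between libraries of 0.947 to 0.986 showed no duplicates.

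The members and lists were chosen with earlier results of these data known. Named in full were the 2 smallest and the largest p of each role list (all in lists of 4 or fewer), every called member, the 3 catalytic core genes, up to 3 called genes per pathway list or else that of the smallest p, and 8 genes always named (Psmb8, Psmb9, Psmb10, Psme1, Psme2, Pomp, Nfe2l1 and Nfe2l2). Psma6, Psmc5 and Rps27a were named after their values were seen. Psme2b, placed with Psme2 in a pathway list, was counted as a member because the rule includes it. Paaf1 and Ahsp were not matched by symbol and not analysed here, and some other genes of the pathway are not reported here. Promoter windows are RefSeq's, in GRCm38.p6, and were not joined to the table's coordinates.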

Additional observations from a re-analysis of the deposited data

Results flagged for a closer look

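Among the 5 saline libraries 1 library stood apart in 4 of 33 measures examined (31 genes, the total count and the haemoglobin share), where chance flags about 1 in 20. The genes share libraries and most subunits were highest in the same saline library, so these measures are not independent. Psme3 was at 329 CPM in saline replicate 3 and at 179.6 to 219.5 CPM in the others. Saline replicate 1 stood apart in Psma2 (87.7 CPM against 60.9 to 66.2), Psmg3 (5.54 CPM against 2.14 to 2.94) and Psmd2 (156 CPM against 118 to 126).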

How the results depend on the processing

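The 3 genes called higher stayed called under all 16 alternatives except that Psmd4 did not pass without fucoidan replicate 3, and 2 to 3 members were called higher when a library was left out. Over the alternatives the log2 fold change was 1.36 to 2.09 for Psme3, 0.76 to 1.06 for Psmf1 and 0.42 to 0.69 for Psmd4, and 0 members were called lower in any of them. With the replicate number as a block 3 members were called higher and 0 lower, with Psme3, Psmf1 and Psmd4 at adjusted p = 7.81e-05, 0.00076 and 0.0167, and among the genes named the block changed no call but that of Rps27a. The number of pathway genes called lower, 0 in the fit reported, was 1 with DESeq2 and 1 with the replicate block (Rps27a in both), and 0 to 1 when a library was left out, the 1 being Rps27a without saline replicate 5. Ubqln1 was called higher with median-of-ratios factors, DESeq2, no filter and without fucoidan replicate 3. The scalings moved the median of all genes by less than 0.1. With 3 fucoidan libraries the intervals of the core and regulatory genes other than Psmd4 still allow folds of 0.635 to 1.48, and the precision of Psmg3 and Psmc3ip is limited by their low counts.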
